A study of Rattus norvegicus with 8 samples.

Results

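The miR-181 family was described in small RNA sequencing of rat exosomes, which are small vesicles shed by cells. Its members were the 4 mature rat names rno-miR-181a-5p, rno-miR-181b-5p, rno-miR-181c-5p and rno-miR-181d-5p, here written without the rno prefix, chosen by name and not by value, out of 1273 names in the deposited table. They filled 6 of 1512 deposited rows, whose estimated counts were summed per name, and all 4 passed the filter on low counts. Exosomes of nucleus pulposus progenitor cells (NPPC) gave 4 libraries, and those of nucleus pulposus cells (NPC) gave 4. The nucleus pulposus is the soft centre of an intervertebral disc, and its progenitor cells are stem-like cells of that tissue. Both groups were rat disc cells, and the labels gave no strain, age, passage or treatment. Whether a group's libraries stem from independent cultures or animals was not stated. The p-values therefore measure the spread between these libraries alone, and that spread may be technical.

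Mature miRNAs guide Argonaute proteins to messenger RNAs, mainly by pairing of the seed, the stretch next to the 5′ end, and lower the output of those messages. The miR-181 family is best known from lymphocytes, brain and endothelium: in mouse, miR-181a-5p tunes the sensitivity of the T cell receptor and miR-181b-5p dampens NF-kappaB signalling in vascular endothelium. In rat heart cells miR-181c-5p has been found to act on a messenger RNA of mitochondria, and in human glioma cells miR-181d-5p represses the DNA repair gene MGMT. Each hairpin releases a guide arm, which was analysed as a member, and a passenger arm, which is usually degraded.

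The sequences below show what the members share and how little separates them. They are the mature sequences of RefSeq on GRCr8 (4 of 4 members matched), written 5′ to 3′ with the seed, bases 2 to 8, in capitals.
miR-181a-5p: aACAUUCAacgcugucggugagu
miR-181b-5p: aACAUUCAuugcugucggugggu
miR-181c-5p: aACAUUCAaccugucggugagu
miR-181d-5p: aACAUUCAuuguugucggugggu
All 4 members had the same seed, so 1 seed covered the family. Counted from 1 at the 5′ end, miR-181b-5p differed from miR-181a-5p by A9U, C10U and A21G. miR-181d-5p differed from miR-181b-5p by a single change, C12U. miR-181c-5p was miR-181a-5p without its base 11 and was 22 bases long, where the other members had 23. The deposited rows were 1 base longer at the 3′ end for b and d and 2 bases longer for c, which put the GC content of the row sequences at 47.8% for a, 45.8% for b and 41.7% for both c and d.

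The family came from 3 pairs of neighbouring hairpins. The coordinates are those of the deposited table, for which the sources used here name no build. There the hairpins of a-1 (54952736 to 54952841) and b-1 (54952903 to 54953012) lay 61 bases apart on the plus strand of chromosome 13. Those of a-2 (23150352 to 23150468) and b-2 (23151454 to 23151542) lay 985 bases apart on the plus strand of chromosome 3. Those of d (25290037 to 25290157) and c (25290211 to 25290316) lay 53 bases apart on the minus strand of chromosome 19. The a row carried the same values at both of its hairpins, as did the b row, since these mature sequences are identical. The guide arm therefore cannot tell the chromosome 13 pair from the chromosome 3 pair. The d count was not whole in 5 of 8 libraries, while the sum of b and d was whole in 8 of 8 (within 0.05 counts). Those 5 were NPPC replicates 1 to 4 and NPC replicate 4, while d was whole in NPC replicates 1 to 3. Reads that match both b and d thus appear to have been divided between them, and their levels are uncertain to that extent. Counts of d that were not whole lay mostly in NPPC libraries. A whole count does not show that no reads were divided, since the parts can also be whole. The extent of the division in each group is therefore unknown, and its part in the differences of d between the groups was not tested.

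The NPPC libraries held 819845 to 1416940 counts and the NPC libraries 329011 to 681591, so every NPPC library was deeper. NPC replicate 1 stood apart, with a scaling factor (TMM, which aligns the bulk of the names between libraries) of 1.64 against 0.871 to 1.01 in the other libraries. In it, the level of 278 rat names relative to the other libraries followed their GC content, with a Spearman correlation of 0.856 across names, which are not independent replicates. Of miRNAs of mesenchymal cells 6 of 6 were measured, with summed levels of 183801 to 198337 CPM (the usual depth-scaled count, with TMM factors) in NPPC and 157624 to 225105 CPM in NPC libraries, led by miR-199a-3p and miR-199a-5p (log2 fold changes 0.12 and -0.13). Of these 6, 2 lay higher and 4 lower in NPPC exosomes, and miR-140-3p, an abundant cartilage miRNA, stood at -0.66 (unadjusted p = 0.00448, adjusted p = 0.314 by edgeR) without overlap of the groups. Without NPC replicate 1 its difference of mean log2 CPM was -0.49. The other arm, miR-140-5p, which is outside the list, stood at 0.27 with overlap of the groups (adjusted p = 0.740 by edgeR). Of leukocyte miRNAs 4 of 6 were abundant enough to test, of which 2 lay higher and 2 lower in NPPC exosomes, and 1 passed. Their summed levels were 996 to 1569 CPM in NPPC and 57.7 to 483 CPM in NPC libraries, led by miR-146a-5p (log2 fold change 3.38) and miR-155-5p (1.38). Of the arms of the blood cell miRNA miR-142, miR-142-3p had 30 counts over all libraries, while miR-142-5p had 680 counts, with means of 93.6 CPM in NPPC and 127 CPM in NPC exosomes (log2 fold change -0.44). A row under the mouse name mmu-miR-223-3p, a myeloid miRNA outside the list of rat names, averaged 56.7 CPM in NPPC and 55.5 CPM in NPC exosomes. Neural miRNAs summed to 2009 to 2426 CPM in NPPC and 812 to 2255 CPM in NPC libraries, led by miR-7a-5p (0.79) and miR-128-3p (-0.21), and the neuronal miR-124-3p had 6 counts in all. Endothelial miRNAs, miR-126a-3p (-0.14) and miR-126a-5p (0.32), summed to 461 to 679 CPM in NPPC and 277 to 756 CPM in NPC libraries. Erythrocyte miRNAs, led by miR-451-5p (1.29) and miR-486 (-0.54), summed to 198 to 1416 CPM in NPPC and 373 to 583 CPM in NPC libraries. In the mesenchymal, neural, endothelial and erythrocyte lists, 0 miRNAs passed. Other markers also moved without NPC replicate 1. The difference of mean log2 CPM was then 3.01 for miR-146a-5p, 1.01 for miR-155-5p and -0.91 for miR-142-5p. For miR-7a-5p and miR-128-3p it was 0.42 and -0.26, and for miR-451-5p and miR-486 it was 0.50 and -0.74. In NPC replicate 1 both miR-142-5p and mmu-miR-223-3p had 0 CPM, which enters their NPC means. The part of other cell types in the levels of the miR-181 members was not tested.

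Libraries from exosomes of both cell types held far more counts of the a and b members than of c and d. As a share of family counts, miR-181a-5p took 70.4% ± 0.909 in NPPC and 70.6% ± 2.11 in NPC exosomes, and miR-181b-5p took 27.1% ± 1.04 in NPPC and 27.9% ± 1.95 in NPC exosomes (SD, n = 4 each). miR-181d-5p took 1.797% ± 0.106 in NPPC and 1.12% ± 0.221 in NPC exosomes (SD, n = 4 each). miR-181c-5p took 0.711% ± 0.103 in NPPC and 0.402% ± 0.209 in NPC exosomes (SD, n = 4 each). The order a, b, d, c held in each library. Since a read spans the whole mature RNA and the members are of nearly equal length, their counts were compared without a length correction. No correction was made for how readily each sequence enters a library, so this is an order of counts. Between d and c the order was least clear in NPC replicate 2, where d had 57 and c had 44 counts and their exact 95% binomial intervals as shares of the family, 0.691% to 1.18% and 0.511% to 0.943%, overlapped. The whole family took 1.10%, 0.927%, 0.876% and 0.891% of all counts in NPPC replicates 1 to 4, and 1.89%, 1.01%, 0.885% and 0.860% in NPC replicates 1 to 4. The exact 95% binomial interval for NPC replicate 1 was 1.84% to 1.94%. Intervals cover counting error only, since reads without molecular identifiers are not independent molecules.

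**Figure D1:**
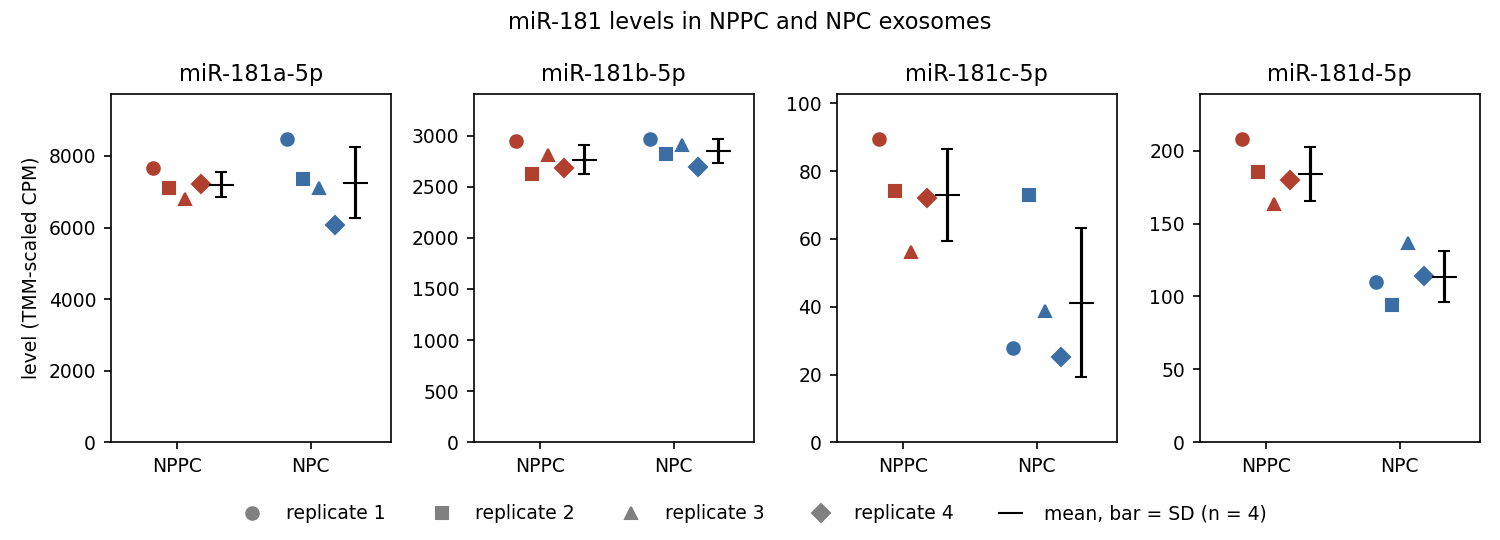
Level of each miR-181 member in TMM-scaled CPM (y axes start at 0) in the 4 NPPC and 4 NPC libraries, 1 marker shape per replicate number, with the mean and SD beside the points. The groups overlap for a, b and c, while for d the NPPC libraries lie at 163 to 208 CPM and the NPC libraries at 94.3 to 137 CPM.

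The series compared NPPC with NPC exosomes. miR-181a-5p, the most abundant member, had 7659.9, 7111, 6809 and 7227 CPM in NPPC replicates 1 to 4, against 8473, 7370.2, 7105 and 6083 CPM in NPC replicates 1 to 4. The groups overlapped, and both the highest and the lowest value were NPC libraries. The log2 fold change of NPPC over NPC was -0.011 ± 0.14 (SE), with a 95% interval from -0.33 to 0.31 and an adjusted p of 0.967 by the quasi-likelihood test of edgeR (two-sided, Benjamini-Hochberg adjusted over 390 names).

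miR-181b-5p had 2951, 2623, 2805 and 2681 CPM in NPPC replicates 1 to 4, against 2966, 2820.3, 2905 and 2693 CPM in NPC replicates 1 to 4. All 8 libraries lay close together, with no separation of the groups. The log2 fold change was -0.042 ± 0.12 (SE), with a 95% interval from -0.32 to 0.24 and an adjusted p of 0.879 by the same edgeR test. The sign of a and b turned with the processing: with total count scaling, which moved the median of all names by -0.25, they stood at -0.31 and -0.31, and with no filter at 0.10 and 0.071.

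miR-181c-5p, the rarest member, had 74, 75, 71 and 83 counts in NPPC replicates 1 to 4, against 15, 44, 23 and 13 counts in NPC replicates 1 to 4. In TMM-scaled CPM these were 89.4, 74.2, 56.3 and 72.2 in NPPC and 27.9, 72.8, 38.8 and 25.1 in NPC exosomes. NPC replicate 2 lay among the NPPC libraries and the other 3 NPC libraries lay below all of them. The mean was 73.0 ± 13.6 CPM in NPPC and 41.2 ± 21.9 CPM in NPC exosomes (SD, n = 4 each). The log2 fold change was 0.82 ± 0.40 (SE), with a 95% interval from -0.094 to 1.73 and an adjusted p of 0.458 by edgeR, so it did not pass. It was 1.25 without NPC replicate 2 (adjusted p = 0.380 by edgeR) and 0.68 without NPC replicate 1 (adjusted p = 0.337).

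miR-181d-5p was the 1 member whose groups did not overlap. It had 208, 185, 163 and 180.0 CPM in NPPC replicates 1 to 4, against 109.8, 94.3, 137 and 114 CPM in NPC replicates 1 to 4. The lowest NPPC library, replicate 3, lay above the highest NPC library, which was also numbered 3. The mean was 184 ± 18.4 CPM in NPPC and 114 ± 17.5 CPM in NPC exosomes (SD, n = 4 each). The log2 fold change was 0.69 ± 0.21 (SE), with a 95% interval from 0.21 to 1.18. Its unadjusted p was 0.0105 and its adjusted p 0.314 by edgeR, so it did not pass over all names. Without NPC replicate 1 the log2 fold change was 0.69 (adjusted p = 0.114 by edgeR). The unadjusted p stayed under 0.05 in 20 of 25 other settings and missed it in the other 5. By edgeR it was 0.167 with total count scaling, 0.0681 with no filter, 0.482 with a GC correction, 0.406 with that and the replicate block, and 0.0807 with the GC correction without NPC replicate 1.

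Of the 4 members, 0 had an adjusted p under 0.05, where 1 of 390 names did (0.256%), miR-146a-5p. That count was 0 with the replicate number as a block, and with a library left out it was 1 without NPC replicate 1 and 0 otherwise. At an unadjusted p under 0.05, 1 member, d, was higher in NPPC exosomes and 0 were lower, where 16 of 390 names (4.1%) were higher and 25 (6.41%) were lower, 41 in all (10.5%). Those 41 became 23 without NPPC replicate 3 or NPPC replicate 4, 65 without NPC replicate 3 and 86 without NPC replicate 1. Groups that did not overlap, with NPPC above NPC, were found for 1 of 4 members and for 24 of 390 names (6.15%), and with NPPC below NPC for 0 members and 18 names (4.62%), 42 names in all (10.8%). Over the 278 rat names tested, 20 (7.19%) had NPPC above NPC without overlap and 16 (5.76%) were higher at an unadjusted p under 0.05. The log2 fold change was above 0 for 2 of 4 members, 48.7% of all names and 60.1% of rat names. The median log2 fold change was 0.34 over the 4 members, -0.038 over all names tested and 0.19 over the 278 rat names tested. In bulk RNA of vesicles, more vesicles that carry a miRNA and more of it per vesicle cannot be told apart.

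**Figure D2:**
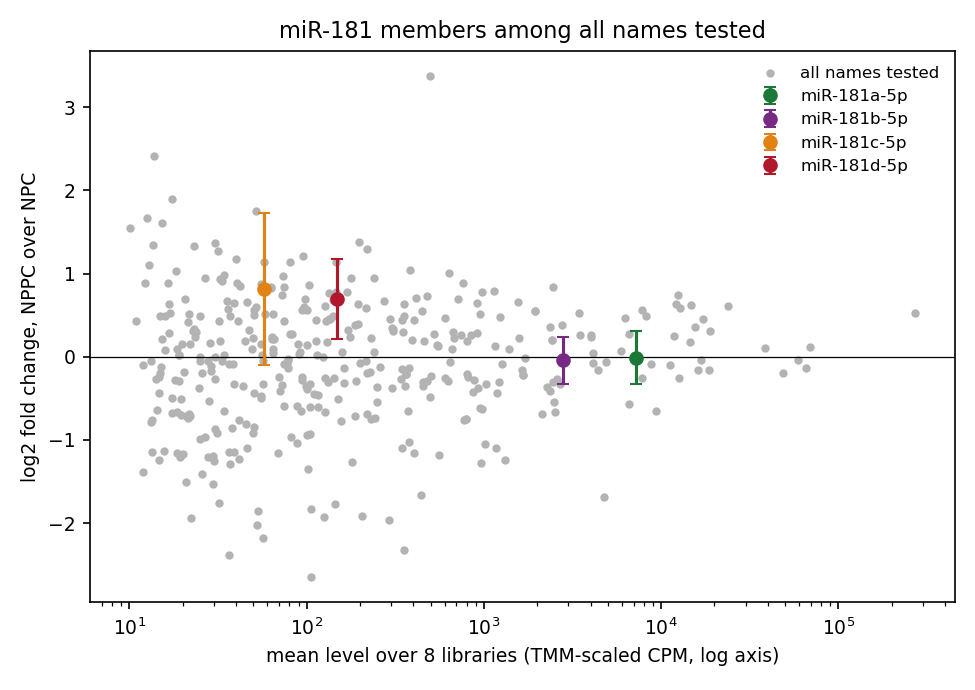
Log2 fold change of NPPC over NPC (y axis) against the mean level over the 8 libraries in TMM-scaled CPM (x axis, log scale) for all 390 names tested in grey and the 4 miR-181 members in colour, with 95% intervals. The a and b members sit at 0 with short intervals, while c and d sit at 0.82 and 0.69 with longer ones.

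The chromosome 19 pair was then set against the other pairs within each library, which needs no scaling between libraries. Together c and d made up 2.73%, 2.59%, 2.23% and 2.48% of family counts in NPPC replicates 1 to 4, against 1.19%, 1.61%, 1.72% and 1.56% in NPC replicates 1 to 4. The exact 95% binomial intervals were 2.40% to 3.08%, 2.29% to 2.92%, 1.98% to 2.51% and 2.21% to 2.78% in NPPC libraries, and 0.936% to 1.49%, 1.32% to 1.96%, 1.41% to 2.08% and 1.22% to 1.96% in NPC libraries. The lowest NPPC share thus exceeded the highest NPC share, while the intervals of NPPC replicate 3 and NPC replicate 3 overlapped. Per 100 counts of a and b there were 2.57 ± 0.219 counts of c and d in NPPC and 1.54 ± 0.238 in NPC libraries (SD, n = 4 each). The log2 ratio of c and d over a and b differed by 0.75 between NPPC and NPC libraries, a 1.68-fold difference. In a two-sided exact permutation test p was 0.0286, which 70 arrangements cannot go below, and 0.0857 after Benjamini-Hochberg adjustment over 3 ratios, so the difference did not pass the adjusted threshold. Without NPC replicate 2 it was 0.78, with the same exact permutation p of 0.0286 and an adjusted p of 0.0429. The adjusted p fell only because the ratio of d over c also reached 0.0286 without that library, so this is no stronger result. With the libraries paired by replicate number it was 0.75, with an exact sign-flip p of 0.125, the smallest that 4 pairs can give. The ratio was chosen with earlier results of these data known, so its direction is not independent evidence.

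**Figure D3:**
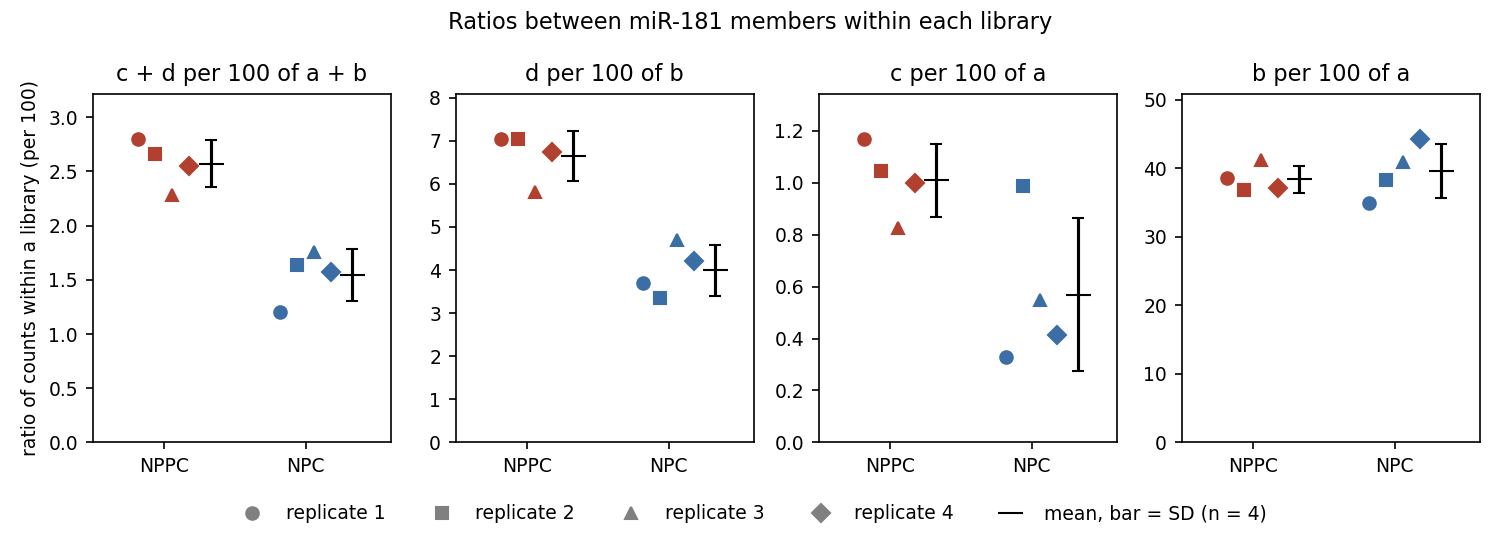
Counts of c and d per 100 of a and b, of d per 100 of b, of c per 100 of a and of b per 100 of a, within each of the 4 NPPC and 4 NPC libraries (y axes start at 0), with mean and SD. For c and d over a and b (2.28 to 2.80 in NPPC, 1.20 to 1.75 in NPC) and for d over b the groups do not overlap, for c over a and b over a they do.

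Taken singly, c and d both had higher means in NPPC libraries, with overlap of the groups for c. Against the a member, which shares no divided reads with them, d stood at 2.55 ± 0.135 per 100 counts in NPPC and 1.59 ± 0.350 in NPC libraries (SD, n = 4 each), a log2 difference of 0.71 with an exact permutation p of 0.0286 (0.0857 adjusted over 3 ratios). c stood at 1.01 ± 0.141 per 100 counts of a in NPPC and 0.569 ± 0.293 in NPC libraries (SD, n = 4 each), a log2 difference of 0.94 with an exact permutation p of 0.0571 (0.171 adjusted). Neither passed after adjustment, and these ratios were added after the data were seen. Against its near copy b, d had 7.03, 7.04, 5.81 and 6.73 per 100 counts in NPPC replicates 1 to 4, against 3.70, 3.35, 4.71 and 4.20 in NPC replicates 1 to 4. The groups did not overlap in this ratio, and the divided reads enter both of its counts. Since b lay close together in all libraries, the ratio largely repeats the difference of d and is no separate evidence. The same d counts also enter the ratio of d over a and that of c and d over a and b.

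The balance of members within each kind of pair was compared in the same way. There were 38.4 ± 1.99 counts of b per 100 of a in NPPC and 39.6 ± 3.94 in NPC libraries (SD, n = 4 each), a log2 difference of -0.040 with an exact permutation p of 0.629, and the groups overlapped. With the GC correction that difference was -0.23 (exact permutation p = 0.0286, adjusted p = 0.0857), and -0.22 with NPC replicate 1 left out as well (exact permutation p = 0.0571, adjusted p = 0.0857). There were 2.55 ± 0.245 counts of d per count of c in NPPC and 3.32 ± 1.41 in NPC libraries (SD, n = 4 each), a log2 difference of -0.24 with an exact permutation p of 0.629. NPC replicate 2, with 1.30, was the only NPC library below the NPPC range of 2.32 to 2.90. Without it the log2 difference of d over c was -0.64, with an exact permutation p of 0.0286 (0.0429 adjusted). That is the lowest p possible there, since leaving out this library leaves NPC replicates at 3.93, 3.52 and 4.51, above all NPPC libraries. With any other library left out the exact permutation p lay from 0.600 to 0.943, so the lower value rests on removing NPC replicate 2.

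The rarer members also differ from the others in base composition. Both rarer members had the lower GC content of the family. In NPC replicate 1 rat names of low GC content lay low. There c lay 0.97 and d lay 0.44 below the mean log2 CPM of the other libraries, which include all NPPC libraries. Against that mean a lay 0.27 and b lay 0.093 above. Among NPC libraries alone, d had 109.8 CPM in replicate 1, within the 94.3, 137 and 114 CPM of replicates 2 to 4. For c these were 27.9 CPM against 72.8, 38.8 and 25.1 CPM. The fitted GC trend of NPC replicate 1 was -0.79 in log2 units at both c and d. This trend is relative to the mean of all libraries, a different base from the 0.97 and 0.44 above. For d it was larger in size than the 0.44, and whether it overcorrects d was not tested. With each library corrected for its GC trend, which moved the median of all names by 0.14, the log2 fold changes were 0.36 for c (adjusted p = 0.815 by edgeR), 0.18 for d (adjusted p = 0.870), 0.082 for a and -0.15 for b. The log2 difference in the ratio of c and d over a and b was then 0.22, with an exact permutation p of 0.343. Without NPC replicate 1 it was 0.63 uncorrected and 0.45 corrected, each with an exact permutation p of 0.0286 and an adjusted p of 0.0857. Among the libraries other than NPC replicate 1, GC content and the difference of NPPC over NPC had a Spearman correlation of -0.23 over the 278 rat names, given as a description. The part of GC content in the difference of c and d was not tested further.

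**Figure D4:**
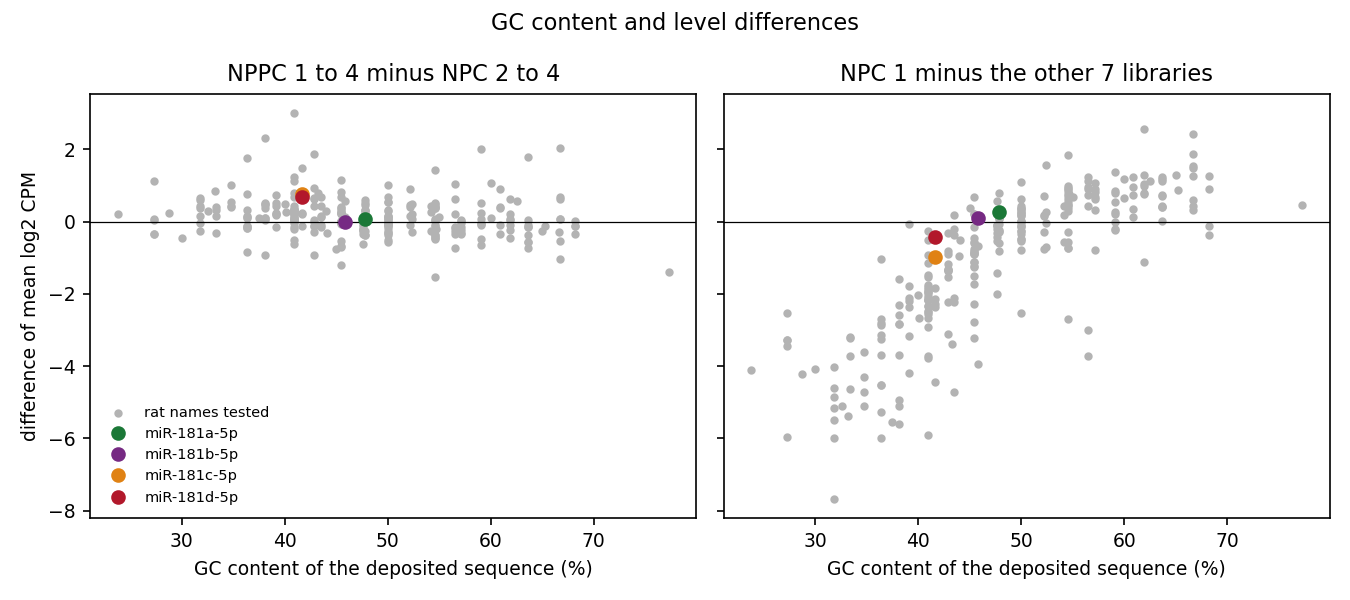
Difference of mean log2 CPM against GC content (x axis, percent) for the 278 rat names tested in grey and the miR-181 members in colour, between NPPC and NPC replicates 2 to 4 (left) and between NPC replicate 1 and the other libraries (right). On the right, names of low GC content lie far below 0, with c at -0.97 and d at -0.44 relative to a mean that includes the NPPC libraries. On the left c and d lie at 0.76 and 0.68, a and b at 0.075 and -0.022.

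Passenger arms come from a single hairpin each and so show 1 locus. The sequences of the 2 that were abundant enough to test, again from RefSeq with bases 2 to 8 in capitals, were as follows.
miR-181a-1-3p: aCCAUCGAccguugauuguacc
miR-181c-3p: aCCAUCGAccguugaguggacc
miR-181a-1-3p, from the chromosome 13 hairpin, had 88.2, 78.1, 66.6 and 76.5 CPM in NPPC replicates 1 to 4, against 87.5, 69.5, 54.0 and 106 CPM in NPC replicates 1 to 4. The groups overlapped, and its log2 fold change was -0.035 ± 0.28 (SE) with an adjusted p of 0.956 by edgeR. There were 93.6 ± 6.55 counts of miR-181a-5p per count of it in NPPC and 97.9 ± 30.8 in NPC libraries (SD, n = 4 each). The miR-181a-5p count covers both of its hairpins, so this is not the ratio between the arms of a single hairpin.

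miR-181c-3p, from the same hairpin as miR-181c-5p on chromosome 19, had 11, 8, 56 and 23 counts in NPPC replicates 1 to 4, against 10, 28, 14 and 12 counts in NPC replicates 1 to 4. In TMM-scaled CPM these were 13.3, 7.91, 44.4 and 19.999 in NPPC and 18.6, 46.3, 23.6 and 23.1 in NPC exosomes. The groups overlapped, with the lowest level in NPPC replicate 2 and the highest in NPC replicate 2. Its log2 fold change was -0.38 ± 0.62 (SE), with a 95% interval from -1.80 to 1.05 and an adjusted p of 0.785 by edgeR, opposite in sign to that of its guide arm. There were 6.73, 9.38, 1.27 and 3.61 counts of miR-181c-5p per count of miR-181c-3p in NPPC replicates 1 to 4, against 1.50, 1.57, 1.64 and 1.08 in NPC replicates 1 to 4. NPPC replicate 3 lay among the NPC libraries. With its GC content of 59.1% the passenger arm lies at the other side of the GC range from its guide. The third passenger arm in the table, miR-181b-1-3p, had 11 counts over the NPPC and 6 over the NPC libraries and was too rare to test.

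The table also held 6 rows under miR-181 names of another species, the opossum. Each was 26 bases long and began with the whole sequence of miR-181a-5p or miR-181b-5p, followed by 3 further bases. The 3 rows of the a kind had equal counts, although 1 of them differs in its last bases, so their sum may count the same reads more than once and its level is uncertain. Summed, they stood at 77.3, 50.4, 60.2 and 60.9 CPM in NPPC replicates 1 to 4, against 39.1, 66.2, 40.5 and 17.4 CPM in NPC replicates 1 to 4. NPC replicate 2 was again the NPC library among the NPPC values. The log2 fold change of these longer forms of a was 0.60 ± 0.41 (SE), with an adjusted p of 0.564 by edgeR, beside -0.011 for miR-181a-5p itself, and their GC content was 42.3%. The rows of the b kind had counts in 1 library, NPPC replicate 4, and were not tested.

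Over the 8 libraries, both groups together, members correlated more closely within each kind of pair than between kinds. The names below, picked as the highest among 167, correlated more closely still. The Pearson correlation of log2 CPM was 0.63 between a and b and 0.60 between c and d, and lay between -0.19 and 0.18 for the mixed pairs. These values are a description over libraries that share depth and GC trends, and they include the difference between the groups. Among NPPC libraries both c and d were highest in replicate 1 and lowest in replicate 3. Among NPC libraries, however, replicate 2 had the highest c (72.8 CPM) and the lowest d (94.3 CPM). Among 167 other rat names averaging at least 100 CPM, the 3 most like miR-181a-5p were miR-345-3p, miR-24-3p and miR-214-3p (r = 0.86, 0.82 and 0.79). Those most like miR-181b-5p were miR-34c-5p, miR-99b-3p and miR-423-5p (r = 0.85, 0.81 and 0.79). Those most like miR-181c-5p were miR-34a-5p, miR-541-5p and miR-22-5p (r = 0.88, 0.86 and 0.85). For miR-181d-5p they were miR-146a-5p, which restrains NF-kappaB signalling, miR-300-3p and miR-345-5p (r = 0.85, 0.80 and 0.79), with log2 fold changes (NPPC over NPC) of 3.38, 0.64 and 0.78.

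**Figure D5:**
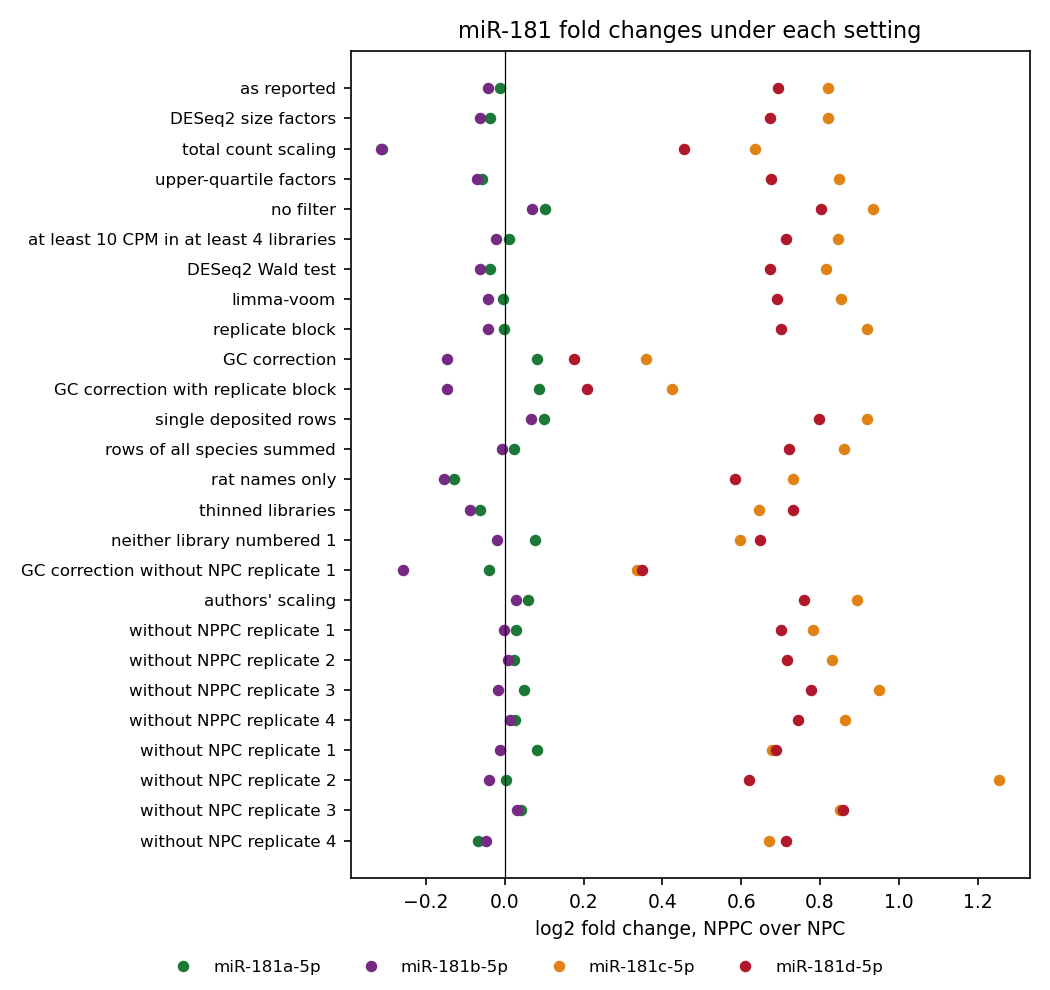
Log2 fold change of NPPC over NPC (x axis) of the 4 members as reported and under each of 25 other settings (rows). The c and d members stay above 0 throughout, with their smallest values, 0.34 and 0.18, in fits with a GC correction, and a and b stay between -0.31 and 0.10.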

How the data were processed

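For 1512 miRNA rows in 8 libraries the authors deposited estimated counts, and beside them a scaled signal that is the count multiplied by 1 factor per library. The submitters' processing notes name CASAVA 1.8, and per the labels' protocols RNA came from an exosome RNA kit and libraries from a TruSeq small RNA kit. Not given in the sources used here are the aligner, the version of miRBase and the build. Of 5804 values above 0, 82.3% were whole within 1e-09.

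Counts were summed per name up to the first _ sign and rounded. The groups were compared in R 4.3.3 by edgeR 4.0.16: filterByExpr kept 390 names (278 rat, 76 of other species, 36 candidates), TMM set the scaling, and a quasi-likelihood fit on group alone was tested two-sided, with Benjamini-Hochberg adjustment over those names. Levels in CPM include the TMM factor, with a prior count of 2 for log2 values. Ratios within a library were compared by two-sided exact permutation (70 arrangements) in Python 3.11.15 (pandas 2.3.3, numpy 2.4.6). Intervals are Clopper-Pearson at 95% (scipy 1.17.1). The GC correction used, as an offset, a loess fit (span 0.75) to GC percent within each library. What was fitted was the deviation of each name's log2 level from its mean over the libraries. The offset can therefore also take up a difference between the groups that follows GC content. RefSeq sequences are those of the GRCr8 assembly. The fits were tested on simulated data.

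Replicate numbers in the titles are shared by the groups. The deviations of same-numbered libraries from their group means correlated at 0.565, 0.116, 0.366 and 0.243 for numbers 1 to 4, each over 0.1, the rule by which numbers were taken as pairs. The labels name no shared culture or day, and some differently numbered libraries correlated more closely (0.355 for NPPC 2 with NPC 4, 0.332 for NPPC 4 with NPC 3), so the data do not single out these pairs. The block is an alternative only. Other settings were DESeq2 1.42.0 size factors and Wald test, limma-voom (limma 3.58.1), other scalings, filters, row sums, thinning to 329010 counts, and libraries left out.

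The members, lists and tests were chosen with earlier results of these data known. Genes named are the members, all other rows named miR-181, the 3 rat names most correlated with each member, and the 2 most abundant of each marker list. The arms of miR-140 and miR-142, miR-124-3p and the mouse-named miR-223-3p were added after their values were seen.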

Additional observations from a re-analysis of the deposited data

Results flagged for a closer look

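Of 20 groups of 4 libraries examined for the members, their ratios and their passenger arms, 1 had a library set apart from its group. The threshold used lets through about 1 in 20 groups by chance. The library was NPC replicate 1, which also had a TMM factor of 1.64 and a GC trend of its own, and their part in the value was not tested. The miR-181 family took 1.89% of all counts in NPC replicate 1, against 0.860% to 1.01% in the other NPC libraries. After TMM scaling the levels of a and b in that library were 8473 and 2966 CPM, while NPC replicates 2 to 4 had 6083 to 7370.2 CPM of a and 2693 to 2905 CPM of b.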

How the results depend on the processing

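Over 25 other settings the log2 fold changes of c (0.34 to 1.25) and d (0.18 to 0.86) stayed above 0 and neither passed, with adjusted p from 0.267 to 0.815 for c and from 0.0588 (DESeq2 Wald test) to 0.870 for d. That of a was above 0 in 15 settings: 0.10 with no filter, 0.0097 with at least 10 CPM in 4 libraries, 0.082 with the GC correction, 0.088 with that and the replicate block, 0.10 with single rows, 0.024 with species summed, 0.076 with neither library numbered 1 and 0.060 with the authors' scaling. That of b was above 0 in 6: 0.071 with no filter, 0.066 with single rows and 0.028 with the authors' scaling among them. With a library left out a ran from -0.067 to 0.082, b from -0.047 to 0.032, c from 0.67 to 1.25 and d from 0.62 to 0.86. The cause of these turns was not tested.

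The number of names with an adjusted p under 0.05, 1 as reported, was 8 with no filter, 6 with the DESeq2 Wald test, 0 with the replicate block, 0 with single rows, 42 with neither library numbered 1, 2 with the GC correction without NPC replicate 1, and 0 to 1 with a library left out. At an unadjusted p under 0.05 it was 41, and 103, 118 and 88 with no filter, neither library numbered 1 and the last of these corrections. With a library left out it ran from 23 without NPPC replicate 3 or NPPC replicate 4 to 86 without NPC replicate 1. The split of the 41, 16 higher and 25 lower, became 10 and 33 with total count scaling and 24 and 7 with the GC correction. The ratio of c and d over a and b differed by 0.63 to 0.81 with a library left out, that of b over a by -0.098 to 0.016, and that of d over c by -0.64 to -0.042. The replicate block gave log2 fold changes of 0.92 for c and 0.70 for d and changed no call of a member. With 3 libraries in each group the exact p cannot go below 0.100. Counts of 13 to 44 for c in NPC libraries limit its precision.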
